A study of Mus musculus with 10 samples.

Results

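The nuclear-encoded subunits of mitochondrial oxidative phosphorylation were followed across primary mouse cortical endothelial cells (ECs). Members were the genes whose symbols begin with Ndufa, Ndufb, Ndufc, Ndufs, Ndufv, Uqcr, Cox4 to Cox8 or Atp5, together with Sdha, Sdhb, Sdhc and Sdhd. This gave 94 of the 21612 genes in the table, namely 37 subunits of complex I, 8 complex I assembly factors (the Ndufaf genes, which the symbol rule takes in), 4 subunits of complex II, 8 of complex III, 20 of complex IV (Ndufa4 and Ndufa4l2 among them) and 17 of complex V. The 37 include Ndufb1-ps, which meets the symbol rule but is annotated as a noncoding RNA in GENCODE M21. Of these, 90 passed the filter on low values and were tested, and 87 had reads in every library. The 4 left untested, Cox7b2, Cox8b, Cox8c and Ndufa4l2, are all in the complex IV group. None of the 13 mitochondrially encoded subunits was among the genes of the table, so they were not analysed here.

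Bulk mRNA-seq had been run on 10 libraries of wild-type ECs in culture, in 4 groups. The MS-275 group (n = 2) held adult ECs treated with 10 µM MS-275, an inhibitor of class I histone deacetylases. The Wnt3a group (n = 2) held adult ECs given Wnt3a, a ligand of canonical Wnt signaling, at 200 nM by the labels, although the study's methods give that figure as a mass per volume. Adult control ECs (n = 3) and E13.5 ECs (n = 3) were the untreated groups. By the study's methods the adult cells came from male mice 2 to 3 months old and the treatments lasted 2 days, cortices were pooled, and the cells were expanded on a collagen-coated surface before use. All groups share this culture step, so freshly isolated vessels were not measured. In bulk samples, fewer cells of a type and less RNA per cell cannot be told apart. The design asks which genes differ between adult and embryonic ECs, and which respond in adult ECs to each treatment.

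Oxidative phosphorylation passes electrons from NADH (complex I) and succinate (complex II) through ubiquinone to complex III, then through cytochrome c to complex IV, which reduces oxygen. The proton gradient built on the way drives ATP synthesis by complex V. Each complex except complex II combines subunits made inside the mitochondrion with nuclear-encoded ones, and the nuclear genes are known targets of the transcription factors NRF1, GABP, YY1 and the estrogen-related receptors. ECs are known to draw much of their ATP from glycolysis.

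Promoter sequence was taken from RefSeq (GRCm38.p6) for 77 of the 94 members, 2 of them matched through a synonym, as 300 bases from 250 before to 50 after the start. The NRF1 motif, GCGC then any base then TGCGC, searched like the others on both strands with overlaps between motifs allowed, was present in 19 of the 77 members (24.7%), against 10.2% of tested genes and 5.19% of all promoters of that length. The GABPA motif CCGGAAG was also in 19 (24.7%), against 17.8% of tested genes. The YY1 motif AAGATGGC was in 11 (14.3%), against 4.64%, and the estrogen-related receptor motif TNAAGGTCA was in 3 (3.9%), against 0.91%. The stretches of 90 bases below are from members called in the MS-275 comparison. They are 2 that fell and hold the NRF1 motif (Atp5g2, Ndufa8), the 2 that rose and hold it (Cox6a1, Atp5h) and 3 of the largest rises, which have none in the window (Ndufaf7, Ndufaf2, Ndufv1). Each is written 5′ to 3′ on the gene's strand, with matches to the NRF1 motif on either strand in capitals.
Atp5g2, chr15:102671048-102671137, minus strand: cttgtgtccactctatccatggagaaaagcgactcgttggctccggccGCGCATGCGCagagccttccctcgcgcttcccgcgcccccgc
Ndufa8, chr2:36049339-36049428, minus strand: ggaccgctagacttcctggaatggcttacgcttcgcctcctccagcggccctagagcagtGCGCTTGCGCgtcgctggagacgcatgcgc
Cox6a1, chr5:115349031-115349120, minus strand: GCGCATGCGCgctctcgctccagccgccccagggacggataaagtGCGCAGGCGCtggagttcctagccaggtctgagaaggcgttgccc
Atp5h, chr11:115420011-115420100, minus strand: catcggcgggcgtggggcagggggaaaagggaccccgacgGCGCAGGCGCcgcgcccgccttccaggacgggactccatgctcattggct
Ndufaf7, chr17:78937045-78937134, plus strand: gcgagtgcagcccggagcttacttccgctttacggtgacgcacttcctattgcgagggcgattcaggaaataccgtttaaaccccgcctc
Ndufaf2, chr13:108158626-108158715, minus strand: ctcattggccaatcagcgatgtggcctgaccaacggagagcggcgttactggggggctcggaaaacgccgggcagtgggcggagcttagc
Ndufv1, chr19:4012756-4012845, minus strand: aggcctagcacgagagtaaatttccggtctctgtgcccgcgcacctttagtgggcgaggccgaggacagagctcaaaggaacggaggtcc
A match describes these letters only, and binding of a factor was not measured.

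The libraries held 21171509 to 31810932 reads on genes and detected 13948 to 16834 genes each. Against the label, the E13.5 libraries carried almost no endothelial marker RNA: a list of 15 endothelial genes made up 0.00769 to 0.0105% of E13.5 libraries, 0.106 to 0.143% of MS-275, 0.672 to 0.943% of Wnt3a and 0.96 to 1.21% of adult control libraries. Pecam1 (CD31) had normalized counts of 45.3, 62.4 and 70.6 in E13.5, against 74703, 81545 and 58849 in adult control, and Cldn5 had 3.18, 0 and 0 against 31200.0, 33861 and 8340.3. The E13.5 libraries instead held markers of other cells, such as Sox2 (4052, 4878 and 4683 in E13.5, 0 in all 7 adult libraries). Every adult control versus E13.5 difference below is therefore a difference between these libraries, in which the makeup of the cultures and the age cannot be told apart. The 7 adult libraries also fell into sets on genome-wide correlation, with MS-275 1, Wnt3a 1 and adult control 1 and 2 in set 1 and MS-275 2, Wnt3a 2 and adult control 3 in set 2. The labels name no such sets, and values within each set are given beside the comparisons. The E13.5 libraries were uneven too, with r = 0.9922 between E13.5 2 and 3, against 0.9676 and 0.9651 with E13.5 1.

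The members together held about 1% of the normalized counts of each library. Their share was 1.07 and 1.11% in the MS-275 libraries, 0.761 and 0.828% in Wnt3a, 0.91, 0.919 and 0.83% in adult control, and 1.06, 0.988 and 0.913% in E13.5. MS-275 libraries were above every adult control library. Wnt3a 1 was below all of them, while Wnt3a 2 (0.828%) was nearly level with adult control 3 (0.83%), also of set 2. By complex, the MS-275 share exceeded every adult control value for complexes I (0.275 ± 0.00274% against 0.24 ± 0.00112%, SD), III (0.0905 ± 0.0038% against 0.0754 ± 0.0045%), IV (0.21 ± 0.0193% against 0.145 ± 0.00146%) and V (0.444 ± 0.00149% against 0.371 ± 0.039%), with n = 2 and n = 3. Complex II overlapped in that comparison, and was the complex whose E13.5 share (0.0698 ± 0.00497%) stood above that of all 7 adult libraries. Complex V drew the most reads, through Atp5b, the catalytic beta subunit, which had 51416 and 35265 normalized counts in MS-275, 43676 and 28809 in Wnt3a, 47889, 50007 and 27508 in adult control and 33582, 29823 and 28301 in E13.5. Atp5b split by set and not by treatment, being high in MS-275 1, Wnt3a 1 and adult control 1 and 2. No test was run on the summed shares.

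**Figure D1:**
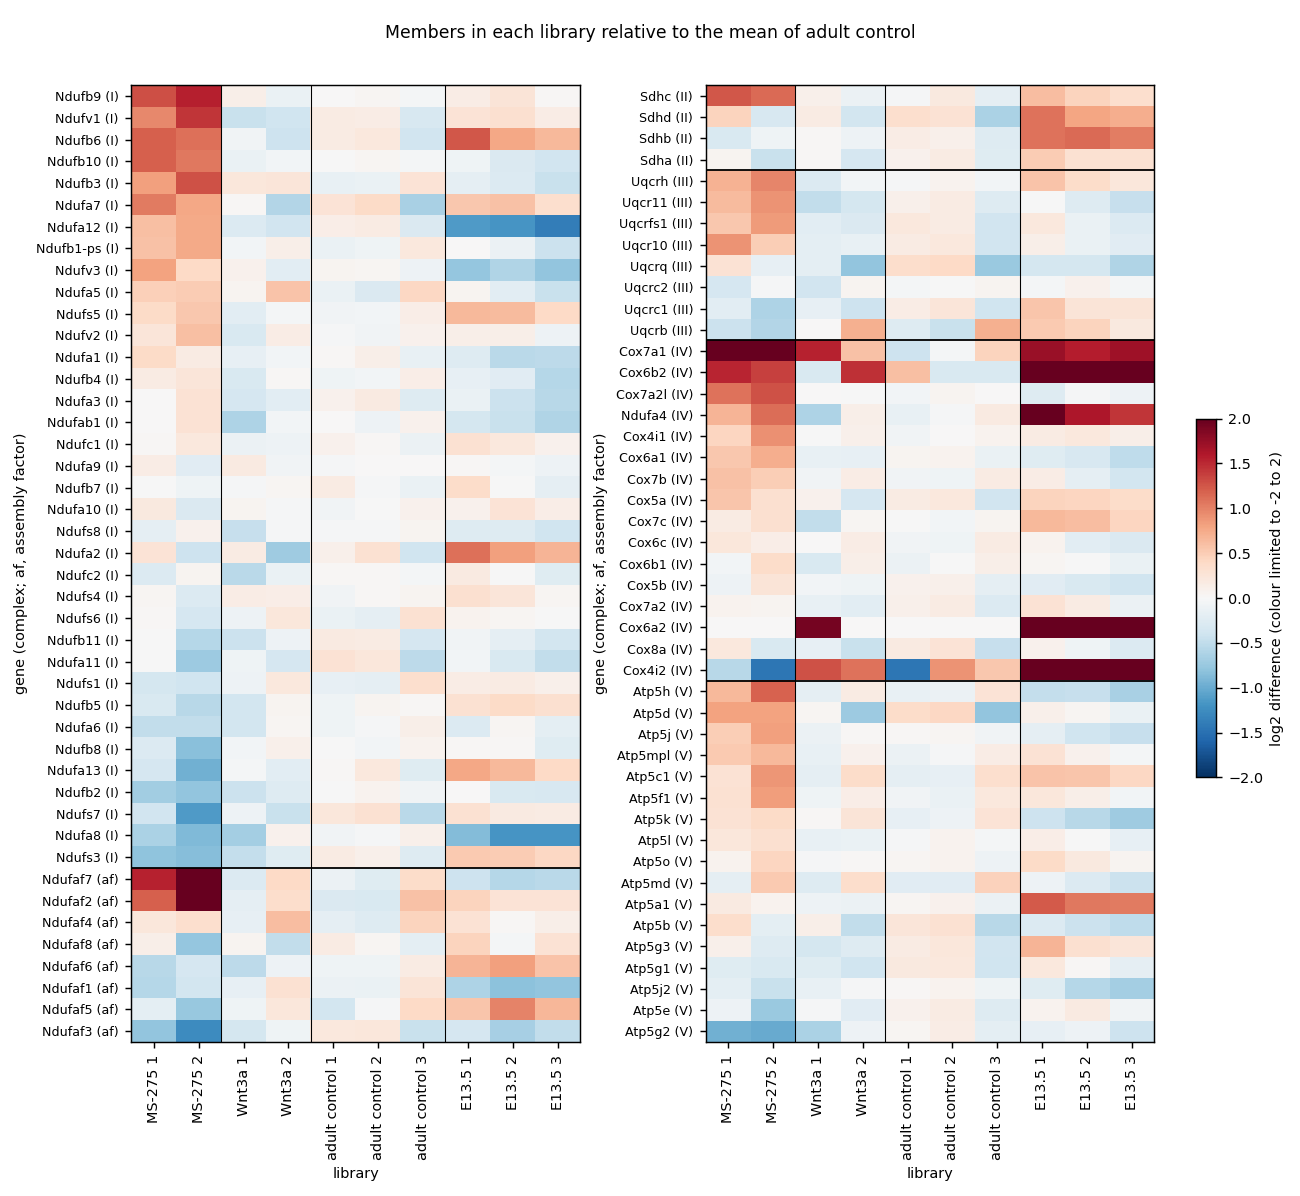
Normalized counts of 89 of the 90 tested members (rows, grouped by complex and ordered within it by the MS-275 difference) in the 10 libraries (columns), as log2(value + 1) minus the mean of the 3 adult control libraries, with color limited to -2 to 2. Red rows at the top and blue rows at the foot of complex I in the MS-275 columns show that members of 1 complex moved in both directions, and the E13.5 columns stand out in Cox6b2, Cox4i2, Cox6a2, Ndufa4, Sdhb and Atp5a1.

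**Figure D2:**
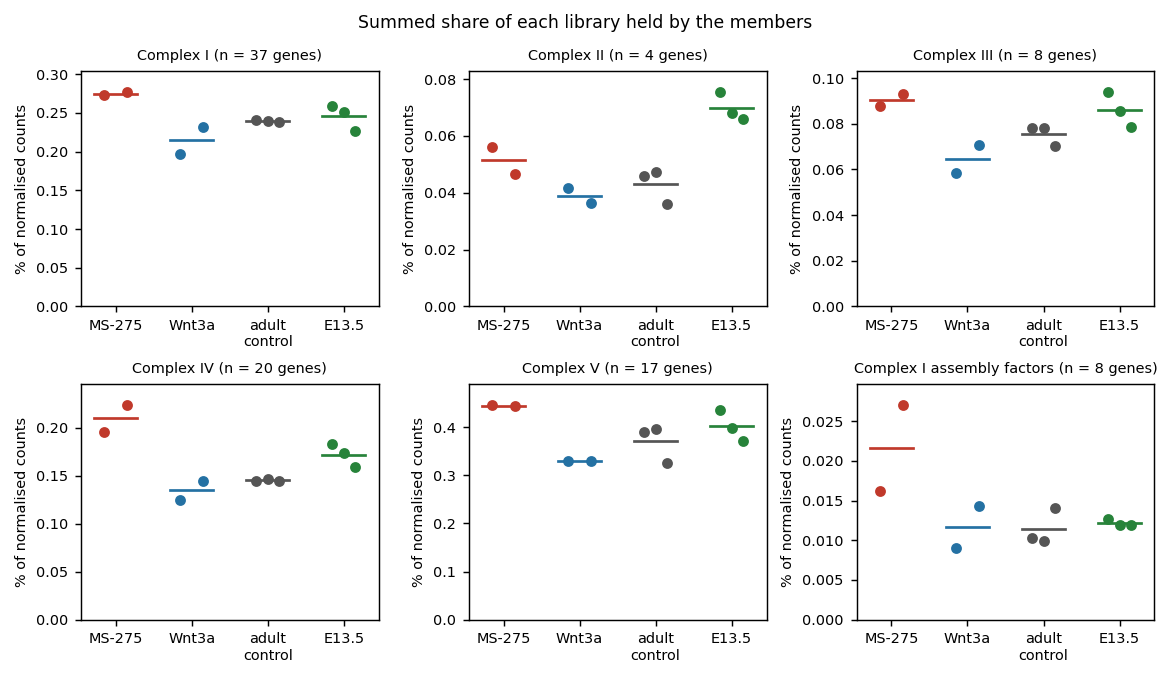
Summed share of each library (percent of all normalized counts, axis from 0) held by the members of each complex, with 1 point per library and a line at the group mean. MS-275 points lie above all adult control points for complexes I, III, IV and V, and E13.5 points lie above all adult points for complex II.

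With MS-275, 25 of the 90 members rose and 7 fell, while 58 did not pass the test. Here and below a member was called when its limma adjusted p was under 0.05 and its log2 difference was above 0.2 in size. Over all 15211 tested genes, 39.1% were called, 21.8% higher and 17.4% lower. The members' 35.6% (27.8% higher and 7.78% lower) is near that background in total. Their median log2 difference was 0.14, against 0.15 for all tested genes (0.15 and 0.01 under quantile normalization). The higher and lower calls were spread unevenly over the complexes. Complexes III and IV had 4 of 8 and 6 of 16 members higher and none lower, complex I had 9 higher and 5 lower of 37, complex V had 3 and 1 of 17, complex II had 1 and 0 of 4, and the assembly factors had 2 and 1 of 8. No test of the difference between complexes was run. The groups did not overlap for 52 of the 90 members (57.8%), against 57.3% of all tested genes. In the same libraries 13 of the 15 endothelial markers fell, while 6 of 12 neuronal, 3 of 6 astrocyte, 4 of 8 fibroblast, 2 of 6 pericyte and 2 of 3 erythroid markers rose. The neuronal list summed to 0.0115 to 0.0203% of MS-275 and 0.00688 to 0.0176% of adult control libraries. Of the other lists, 4 had ranges that did not overlap, at 0.00343 to 0.00502% of MS-275 and 0.000567 to 0.000975% of adult control libraries for fibroblasts, 0.00183 to 0.00188% and 4.41e-05 to 6.17e-05% for the erythroid list, 0.000915 to 0.00141% and 0.000309 to 0.00038% for pericytes, and 0.000245 to 0.000289% and 0 to 2.22e-05% for astrocytes. Microglial markers overlapped, at 0.000535 to 0.000547% and 0.000532 to 0.000815%. The alpha globin gene Hba-a1 had 252 and 244 normalized counts in MS-275 and 0 in all 3 adult control libraries, while the beta globin genes Hbb-bs and Hbb-bt were at 0 in both groups. The neuronal tubulin gene Tubb3 had 568 and 334 in MS-275, against 1.73, 2.03 and 0 in adult control, and Sox2, Dcx, Neurod1 and Neurod6 of that list were at 0 in both. Col6a1 of the fibroblast list had 419 and 844 against 0, 0 and 1.97, and Lum was at 0 in both. Their part in the members' differences was not tested.

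**Figure D3:**
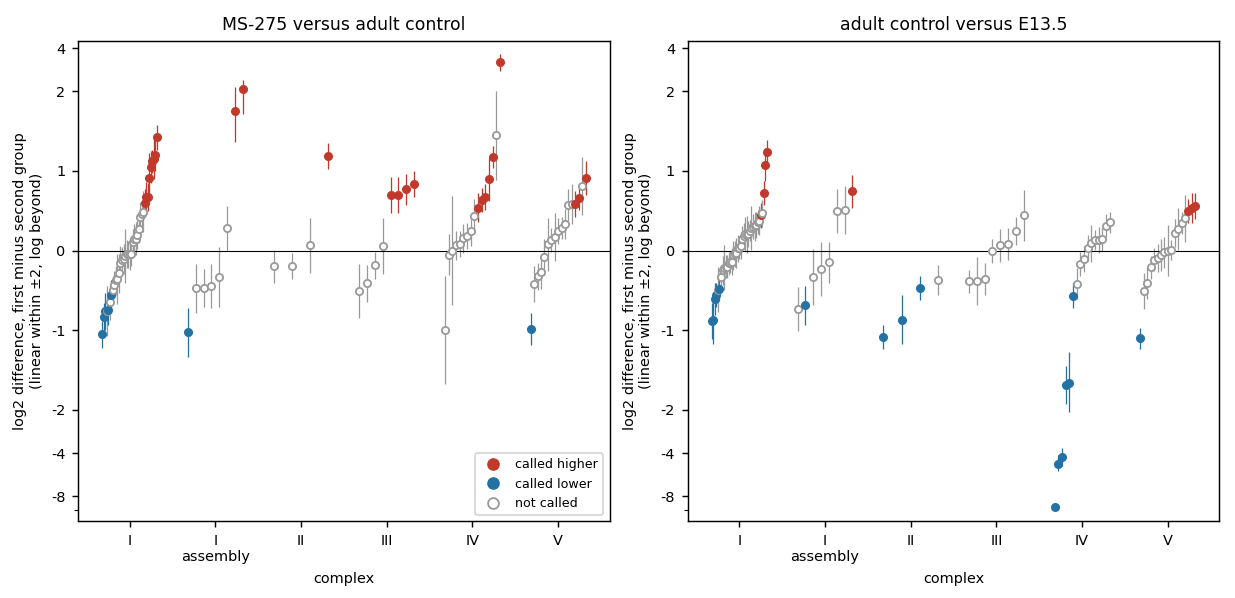
Log2 difference of each tested member (points, bars are the SE of the fit) by complex, for MS-275 versus adult control (left) and adult control versus E13.5 (right), on an axis that is linear within ±2 and logarithmic beyond. Filled points were called. Complexes III and IV have higher calls and no lower ones with MS-275, and complex IV has the 3 most negative adult control versus E13.5 values, down to -9.57. These 3 genes (Cox6b2, Cox4i2 and Cox6a2) passed the filter on low values only through E13.5 libraries.

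In complex I, the NADH dehydrogenase, core and accessory subunits were called in both directions with MS-275. Ndufv1, the core subunit that carries the flavin and accepts electrons from NADH, had 3535 and 4889 normalized counts in MS-275, against 2034, 2011 and 1444 in adult control (log2 difference 1.20 ± 0.20 (SE), adjusted p = 0.0022). Ndufs3, a core subunit of the arm that reaches into the matrix, went the other way, with 805 and 783 against 1582, 1519.8 and 1176 (-0.83 ± 0.17 (SE), adjusted p = 0.0058). In both genes the groups did not overlap, and the calls held when each library was left out in turn. The core subunits Ndufs1 (-0.37), Ndufs7 (-0.76), Ndufs8 (-0.05) and Ndufv2 (0.42) were not called.

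The membrane arm, built in part from the Ndufb subunits, held several of the complex I rises. Ndufb9 had 3976 and 4809 normalized counts in MS-275, against 1639.5, 1672 and 1587 in adult control, which is 2.68-fold higher (log2 difference 1.42 ± 0.16 (SE), adjusted p = 0.00033). Ndufb10 had 4313 and 3917 against 1888, 1939 and 1849.7 (1.12 ± 0.14 (SE), adjusted p = 0.00062). For both genes the spread among adult control libraries was small beside the step to the MS-275 libraries. Ndufb6 (1.15, adjusted p = 0.0074) and Ndufb3 (1.05, adjusted p = 0.0042) rose as well. Ndufb1-ps (0.67) was also called higher, with the call lost without MS-275 2, adult control 1 or adult control 2 (adjusted p up to 0.113). Ndufb1-ps is annotated as a noncoding RNA and shares 147 exon bases with Cpsf2 on the opposite strand. Ndufb2 and Ndufb8, of the same arm, fell. Ndufb2 had 429 and 401 against 691, 729.9 and 666 (-0.74 ± 0.19 (SE), adjusted p = 0.013, and 0.061 without MS-275 2). Ndufb8 had 2043 and 1385 against 2453, 2369 and 2595 (-0.55 ± 0.19 (SE), adjusted p = 0.045), and its call was lost without MS-275 2 or any one of the adult control libraries (adjusted p up to 0.298).

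Among the Ndufa and remaining accessory subunits, Ndufa12 rose (0.67, adjusted p = 0.016, and 0.0914 without MS-275 2). Ndufv3 (0.60, adjusted p = 0.023) lost its call without MS-275 1, adult control 1 or adult control 2 (up to 0.132), and Ndufa7 (0.91, adjusted p = 0.0498) lost it without any one of MS-275 1, MS-275 2, adult control 1 and adult control 3 (up to 0.191). Ndufa8, a subunit with cysteine motifs that face the intermembrane space, had 1968 and 1656 normalized counts in MS-275, against 2921, 3002 and 3280.3 in adult control (-0.76 ± 0.23 (SE), adjusted p = 0.029). All MS-275 values of Ndufa8 lay below all adult control values, but the call was lost whichever of the 5 libraries was left out (adjusted p up to 0.162). Core and membrane-arm subunits were thus found among both the rises and the falls.

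The assembly factors held the largest rises outside Cox7a1. Ndufaf7, known from human cells as an arginine methyltransferase that acts early in complex I assembly, had 1872 and 3814 normalized counts in MS-275, against 589.9, 539.8 and 826 in adult control (4.17-fold, log2 difference 2.06 ± 0.34 (SE), adjusted p = 0.0019). MS-275 2 was the higher of the pair, and both were above every other library of the series. Ndufaf2, a paralog of Ndufa12 that stands in for it during late assembly, had 686 and 1504 against 245, 244 and 451 (1.76 ± 0.40 (SE), adjusted p = 0.0084), and its adjusted p was 0.0758 without MS-275 2. Ndufaf3, an assembly factor of the ubiquinone module, fell to 187 and 134 in MS-275, against 375, 380.2 and 238 in adult control (-1.02 ± 0.31 (SE), adjusted p = 0.027), a call lost without MS-275 2, adult control 1 or adult control 2 (up to 0.155). Ndufaf1, Ndufaf4, Ndufaf5, Ndufaf6 and Ndufaf8 were not called, with log2 differences of -0.47, 0.28, -0.47, -0.44 and -0.33.

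Complex II, succinate dehydrogenase, changed in a single subunit. Sdhc, a membrane anchor of the complex that helps bind heme, had 5233 and 4887 normalized counts in MS-275, against 2193, 2534 and 1965 in adult control (2.28-fold, log2 difference 1.19 ± 0.17 (SE), adjusted p = 0.0009). Sdha, the flavoprotein (-0.20), Sdhb, the iron-sulfur subunit (-0.19), and Sdhd, the other anchor (0.07), were not called. Sdhd ranged with the library set, at 2143 and 1262 in MS-275 and 1990.0, 1915 and 1018 in adult control.

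In complex III, the cytochrome bc1 complex, 4 of 8 subunits rose. Uqcrh, the hinge protein near cytochrome c1, had 3944 and 4766 normalized counts in MS-275, against 2405, 2551 and 2354 in adult control (0.83 ± 0.16 (SE), adjusted p = 0.0043), a call kept without each library in turn. Uqcrfs1, the Rieske iron-sulfur protein (0.70, adjusted p = 0.038), lost its call without any one of MS-275 1, MS-275 2, adult control 2 and adult control 3 (up to 0.211). The small subunits Uqcr11 (0.77, adjusted p = 0.014, and 0.0989 without MS-275 2) and Uqcr10 (0.69, adjusted p = 0.036, up to 0.19 without MS-275 1, adult control 1 or adult control 3) rose too. The core proteins Uqcrc1 (-0.41) and Uqcrc2 (-0.19), with Uqcrb (-0.51) and Uqcrq (0.06), were not called.

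Complex IV, cytochrome c oxidase, is the complex with tissue isoforms. Cox7a1, the isoform known from heart and skeletal muscle, had 81.9 and 88.5 normalized counts in MS-275, against 6.07, 8.13 and 11.8 in adult control (9.17-fold, log2 difference 3.20 ± 0.44 (SE), adjusted p = 0.00085). It was a low count in both groups, and its counterpart Cox7a2, the form found in most tissues, had 2306 and 2266 against 2356, 2462 and 1802 and was not called. The related Cox7a2l had 9546 and 10887 against 4323, 4663 and 4551 (2.26-fold, 1.18 ± 0.14 (SE), adjusted p = 0.00044). Cox7a2l was flat across the other 8 libraries, from 3779 to 4663.

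Of the other isoform pairs, the common forms Cox4i1 (0.67, adjusted p = 0.013, and 0.0812 without MS-275 2) and Cox6a1 (0.64, adjusted p = 0.0097, and 0.0617 without MS-275 2) rose with MS-275. Their alternatives Cox4i2 and Cox6a2 had at most 5.56 and 2.78 normalized counts in any adult library and were not called. Cox6b1 (0.15) and Cox8a (-0.05) were not called either. Cox7b rose (0.54, adjusted p = 0.044), with the call lost without any one of MS-275 1, MS-275 2, adult control 1 and adult control 2 (up to 0.139). Ndufa4, first described in complex I and now assigned to complex IV, had 1575 and 2129 against 886, 971 and 1111 (0.89 ± 0.27 (SE), adjusted p = 0.027), with the call lost without MS-275 2, adult control 1 or adult control 2 (up to 0.18). The untested Cox7b2 had 8.53 and 21.9 normalized counts in the MS-275 libraries and 0 in the other 8.

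In complex V, the ATP synthase, Atp5g2 fell to 1757 and 1708 normalized counts in MS-275, against 3546, 3805 and 2999 in adult control (-0.99 ± 0.20 (SE), adjusted p = 0.0047), with no overlap. Atp5g1, Atp5g2 and Atp5g3 encode the same mature c subunit of the rotor ring, and Atp5g1 (-0.27) and Atp5g3 (-0.08) were not called. Atp5h, a subunit of the stator stalk, had 7419.9 and 10629 against 4252, 4334 and 5669 (0.91 ± 0.21 (SE), adjusted p = 0.0093, and 0.0783 without MS-275 2). Atp5j, coupling factor 6 of the same stalk (0.66, adjusted p = 0.01, and 0.0728 without MS-275 2), and Atp5mpl, a small membrane subunit (0.59, adjusted p = 0.022, up to 0.106 without MS-275 2, adult control 1 or adult control 2), also rose. The catalytic head subunits Atp5a1 (0.13) and Atp5b (0.08) were not called, and neither was Atp5c1 (0.58).

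**Figure D4:**
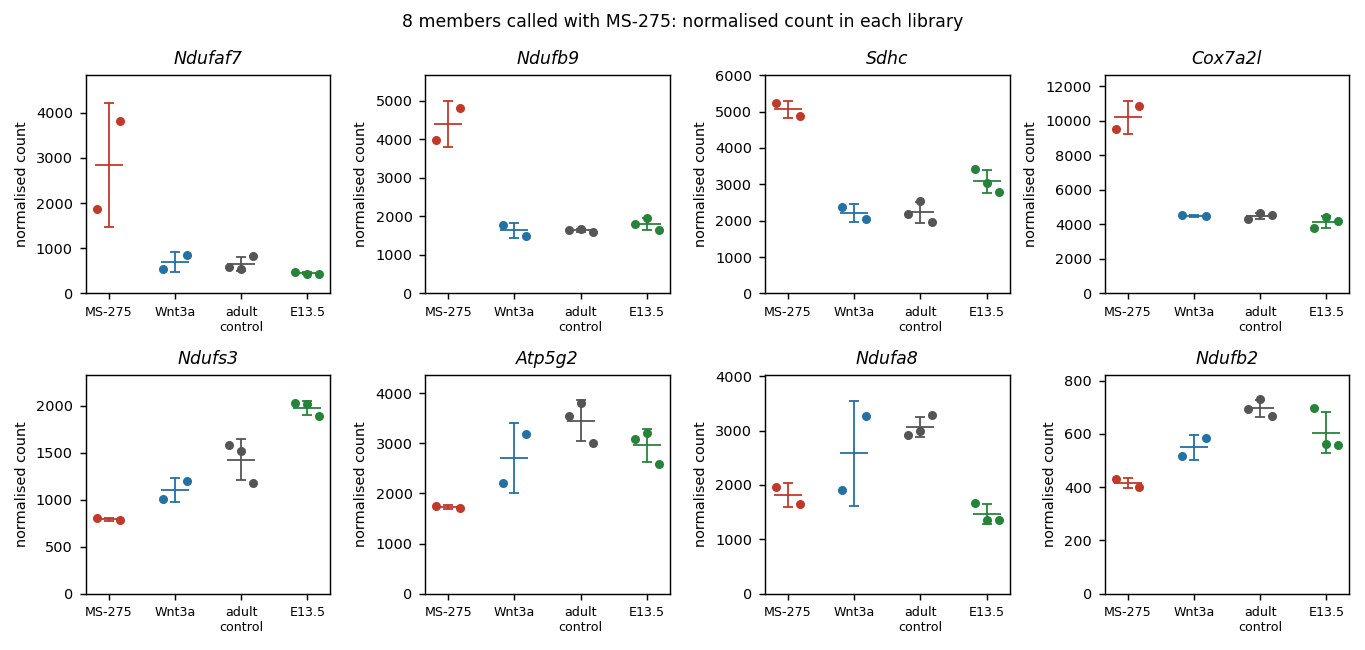
Normalized count (axis from 0) of 8 members called in the MS-275 comparison, with 1 point per library and the group mean ± SD (n = 2, 2, 3 and 3). Ndufaf7, Ndufb9, Sdhc and Cox7a2l (top) were higher in both MS-275 libraries than in any other library, and Ndufs3, Atp5g2 and Ndufb2 (bottom) were lower than in any other, while Ndufa8 was also low in Wnt3a 1 and in E13.5.

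The direction of the MS-275 difference was mostly shared by the library sets. MS-275 1 minus adult control 1 and 2, and MS-275 2 minus adult control 3, had the same sign for 69 of the 90 members (76.7%), with Pearson r = 0.829 and Spearman rho = 0.823 across genes, which are not independent replicates. Over all 15211 tested genes the share was 76.2% and r was 0.764. Of the 32 calls, 13 held when each library was left out in turn, and 8 were lost only without MS-275 2. Without MS-275 2, 12 members were higher and 3 lower.

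**Figure D5:**
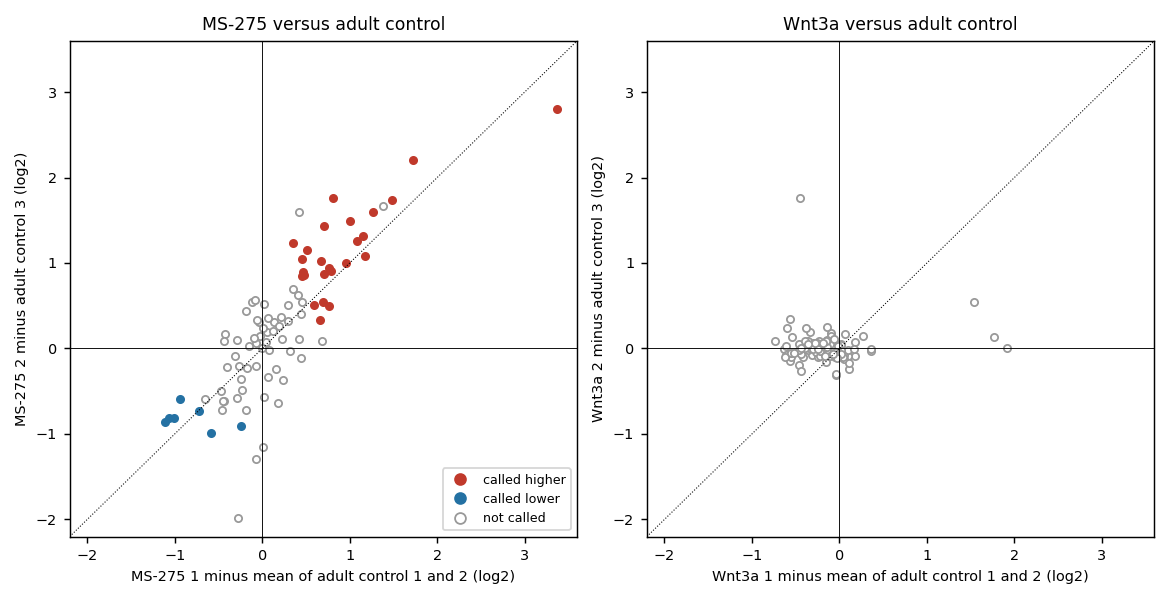
Log2 difference of each tested member within set 1 (horizontal axis) and within set 2 (vertical axis), for MS-275 (left) and Wnt3a (right), with the line of equality dotted. MS-275 points run along the diagonal (r = 0.829 over 90 members), and most Wnt3a points lie in a flat band around 0 on the set 2 axis (r = 0.0326).

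Gene lists around the complexes were read in the same comparison, each beside the background of 21.8% higher and 17.4% lower. Of 13 genes of cristae and inner membrane organisation, 6 were higher and 0 lower with MS-275. Chchd6, a component of the MICOS complex that shapes cristae, led them with 852 and 745 normalized counts in MS-275, against 125, 150.4 and 185 in adult control (log2 difference 2.39, adjusted p = 0.00029). Of 18 genes for cytochrome c and electron carriers, 5 were higher and 1 lower, among them Cycs, cytochrome c itself (0.86, adjusted p = 0.0044). Complex I assembly factors outside the symbol rule had 3 of 10 higher and 1 lower, led by Timmdc1 (1.43, adjusted p = 0.00032) and Acad9 (1.20, adjusted p = 0.00083). Complex IV assembly factors had 5 higher and 5 lower of 22, and those of complexes II, III and V had 2 higher and 1 lower of 15. Sdhaf3, which helps mature the iron-sulfur subunit of complex II (2.04, adjusted p = 0.0016), was among the rises of that list.

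Other mitochondrial lists gave 3 higher and 2 lower of 17 for the tricarboxylic acid cycle, 4 and 1 of 15 for carriers and porins, 3 and 3 of 13 for mitochondrial DNA upkeep, and 15 and 7 of 78 for the mitochondrial ribosome. Glycolysis had 5 higher and 0 lower of 20. The cytosolic ribosome differed in sign from the members, with 0 higher and 16 lower of 80 and a median log2 difference of -0.37, and Rps9 led its falls (-1.09, adjusted p = 0.0088). The regulators of mitochondrial biogenesis had 5 higher and 3 lower of 15. Ppargc1a, the coactivator PGC-1α, had 71.6 and 16.4 normalized counts in MS-275 and 0 in all 3 adult control libraries (adjusted p = 0.00083), which is at least 15.3-fold higher against a floor of 3 reads per library, or 5.71-fold without MS-275 1. Pprc1, a related coactivator, fell to 792 and 657 in MS-275, against 2869, 3057 and 1628 in adult control (-1.75, adjusted p = 0.0012). NRF1's own gene had 502 and 268 against 1017, 998 and 637, with no overlap, as for 57.3% of all tested genes. Of the other motif factors, Gabpa had 3326.5 and 7096.5 against 2042, 1907 and 3362. Gabpa shares 397 exon bases with the member Atp5j on the opposite strand, so reads of this pair could not be assigned with certainty. Yy1 had 3521 and 3732 against 4118, 4437 and 3915, and Esrra had 914 and 981 against 838, 796 and 531.

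The promoter motifs were also counted by the direction of the call. Of the 21 members that rose and had a promoter sequence, 2 held the NRF1 motif (Cox6a1 and Atp5h), against 2 of 6 that fell (Atp5g2 and Ndufa8) and 15 of 48 that were not called. The median log2 difference was 0.07 for the 19 members with the motif and 0.16 for the 56 without it among the 75 tested members matched. The GABPA motif was in 6 of 21, 1 of 6 and 12 of 48. These counts are descriptions, and no test was run on them.

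The members' genes lay on 19 chromosomes and were short, with a median summed exon length of 1587 bases against 4372 for all tested genes (GENCODE M21, GRCm38). A divergent neighbor that starts within 1000 bases was present for 22 of 89 annotated members (24.7%), against 9.17% of tested genes. Of 12 called members with a tested divergent neighbor, the neighbor was called in the same direction for 3 (Ndufb3 with Fam126b, Ndufb9 with Tatdn1 and Uqcr10 with Zmat5), in the opposite direction for 3 and not called for 6. Exons of another coding gene overlapped those of 27 members, and the sources used here do not state whether strand was used in counting, so reads of such pairs could not be assigned with certainty. Among the members named above, this touched Ndufb9 (chr15:58933756-58939488, 201 bases shared with Gm49356 on the same strand), Ndufs3 (chr2:90894634-90904827, 88 bases with Kbtbd4) and Ndufb6 (chr4:40270591-40279421, 257 bases with Smim27). Ndufb1-ps, Ndufb2, Ndufb8, Ndufaf3, Cox4i1, Cox6a2, Atp5a1 and Atp5j (397 bases with Gabpa) had such overlaps too. So did Uqcrc2 (504 bases with Pdzd9), Uqcrb, Ndufs1 and Ndufa4l2, which were not among the calls. Pseudogene copies with at least 97% identity over at least 75 bases existed for 16 members, Atp5g2 (2 copies), Cox7a2l, Atp5h, Ndufs3 and Ndufa12 among them. By the same limits 18 members shared a stretch with another coding gene, which for Ndufb9, Ndufb6, Ndufb2, Ndufs3, Cox4i1 and Atp5j is the overlapping gene itself. Ndufaf7 (chr17:78937136-78948052), with no such overlap, shared stretches with Mfsd4a, Plcd4 and Saa3. Ndufv1 (chr19:4007384-4012806) and Sdhc (chr1:171127165-171150603) had no overlap or copy of these kinds.

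Between adult control and E13.5 libraries, 8 of the 90 members were higher in adult control and 16 lower (26.7% called), while 49.1% of all tested genes were called, 17.9% higher and 31.2% lower. The split of the member calls moved with the scaling, to 3 higher and 22 lower with equal totals and to 14 and 8 by edgeR. The members' median log2 difference was -0.03, against -0.20 for all tested genes. Calls were most frequent in complex II, with 0 higher and 3 lower of 4, and complex IV, with 0 higher and 6 lower of 16, a difference between complexes that was not tested. Of the complex IV calls, those of Cox6b2, Cox4i2 and Cox6a2 came from genes that passed the filter on low values only through E13.5 libraries. Their direction was therefore set by the filter, and they are no evidence of a pattern of the complex. Complex I had 4 higher and 5 lower of 37, the assembly factors 1 and 1 of 8, complex V 3 and 1 of 17, and complex III none of 8. In the same libraries all 15 endothelial markers were higher in adult control, and all 12 neuronal, all 6 astrocyte, 7 of 8 fibroblast, all 6 tested pericyte and 5 of 7 microglial markers were lower. Neuronal markers summed to 0.00688 to 0.0176% of adult control and 0.0996 to 0.145% of E13.5 libraries, and pericyte markers to 0.000309 to 0.00038% and 0.124 to 0.198%. Their part in the members' differences was not tested.

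The largest differences were in complex IV isoforms, of which Cox6b2, Cox4i2 and Cox6a2 entered the test only through their E13.5 values. Cox6b2, the form of subunit 6b known from testis, had 0.867, 0 and 0 normalized counts in adult control, against 990.1, 943 and 877 in E13.5. That is 1 read over the 3 adult control libraries, and the E13.5 level was 3240-fold the adult control level, with a counting interval of 581 to 128000 for that read (exact Poisson, 95%, counting error only). Cox4i2, the lung and hypoxia-linked form of subunit 4, had 0, 4.07 and 2.96 against 80.3, 67.6 and 66.8 (log2 difference -4.73 ± 0.60 (SE), adjusted p = 0.0002). Cox6a2, the heart and muscle form, was at 0 in all 3 adult control libraries and had 7.95, 22.5 and 34.4 in E13.5, at least 7.53-fold lower in adult control against a floor of 3 reads per library (adjusted p = 0.0004). The common forms had at least 3005 normalized counts in every library: Cox6b1 had a log2 difference of 0.03, Cox4i1 of -0.17 and Cox6a1 of 0.36, and none was called.

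Cox7a1, low throughout, had 6.07, 8.13 and 11.8 in adult control, against 30.2, 26.9 and 29.6 in E13.5 (-1.67 ± 0.39 (SE), adjusted p = 0.007), a direction that turned under quantile normalization (1.41). Ndufa4 had 886, 971 and 1111 normalized counts in adult control, against 3943, 3021 and 2663 in E13.5, 3.21-fold lower in adult control (-1.68 ± 0.24 (SE), adjusted p = 0.00038). Every E13.5 value of Ndufa4 lay above every value of the other 7 libraries. Cox7c, a ubiquitous small subunit, was lower in adult control as well (-0.57, adjusted p = 0.016), a call lost without E13.5 2, adult control 1 or adult control 2 (up to 0.0588).

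In complex II, Sdhb had 1663, 1604 and 1250.2 in adult control, against 3166, 3291 and 3051 in E13.5 (2.12-fold lower, -1.08 ± 0.15 (SE), adjusted p = 0.00033), with no overlap. Sdhd (-0.87, adjusted p = 0.043) and Sdhc (-0.47, adjusted p = 0.027) were also lower. The Sdhd call was lost without any E13.5 library or adult control 3 (up to 0.13), and the Sdhc call without E13.5 1, E13.5 2, adult control 1 or adult control 3 (up to 0.0823). Sdha had 6821, 7207 and 5415 against 9114, 7923 and 7943 and was not called. In complex V, Atp5a1, the alpha subunit of the catalytic head, had 9380.0, 9729 and 8407 in adult control, against 21364, 19031 and 18731 in E13.5 (2.15-fold lower, -1.10 ± 0.13 (SE), adjusted p = 0.00014). Its partner Atp5b had a log2 difference of 0.41 and was not called, so the 2 subunits that alternate in the catalytic ring differed in their calls, although the difference between them was not tested.

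The rises in adult control were in complex I and complex V. Ndufa12 had 4685, 4786 and 3513 normalized counts in adult control, against 1964, 1885 and 1640.3 in E13.5 (2.35-fold, log2 difference 1.23 ± 0.16 (SE), adjusted p = 0.0002). Ndufa8 had 2921, 3002 and 3280.3 against 1675, 1356 and 1350.2 (1.08 ± 0.21 (SE), adjusted p = 0.0024), and Ndufv3 rose by 0.72 (adjusted p = 0.0043). These 3 calls held without each library in turn. Ndufaf1, an assembly factor of the membrane arm (0.74, adjusted p = 0.017), and Atp5k, the e subunit (0.56, adjusted p = 0.021), were lost without E13.5 2 or E13.5 3 (up to 0.0652 and 0.083). Ndufa1, Atp5h and Atp5j2 were called higher with adjusted p values of 0.044, 0.044 and 0.023, and the Atp5h call was lost whichever of the 6 libraries was left out (up to 0.138). Those of Ndufa1 and Atp5j2 were lost without E13.5 2, E13.5 3, adult control 1 or adult control 2 (up to 0.145 and 0.0942).

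Among the complex I falls, Ndufb6 had 868, 899.7 and 593 in adult control, against 1834, 1321 and 1213 in E13.5 (-0.89 ± 0.23 (SE), adjusted p = 0.01), a call kept without each library. Ndufs3, Ndufs5, Ndufa2, Ndufa13 and the assembly factor Ndufaf6 were called lower with log2 differences of -0.48, -0.56, -0.87, -0.61 and -0.69. Each of these lost its call without 2 to 5 of the 6 libraries, E13.5 2 and at least 1 adult control library among them, with adjusted p up to 0.0921, 0.0555, 0.128, 0.102 and 0.16. Of the 24 calls, 11 held without each library in turn. With adult control libraries of set 1 alone, 22 members were higher and 25 lower, and 68.8% of all tested genes were called.

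Between adult control and E13.5, the lists around the complexes gave counts in both directions. The mitochondrial ribosome had 22 higher and 3 lower of 78 and the assembly factors of complexes II, III and V had 6 higher and 3 lower of 15, against the background of 17.9% and 31.2%. Sdhaf2, which attaches the flavin to Sdha, had 1949, 2109 and 2324 normalized counts in adult control, against 887, 725 and 698 in E13.5 (1.47, adjusted p = 3.23e-05), while Sdhb and Sdhd ran the other way. Atpif1, the inhibitor of complex V, had 1009, 1069 and 888 against 3472, 2902 and 2698 (-1.61, adjusted p = 3.68e-05). Complex IV assembly factors had 5 higher and 1 lower of 22, cytochrome c and electron carriers 2 and 5 of 18, complex I assembly factors outside the rule 1 and 3 of 10, and glycolysis 3 and 6 of 20. The biogenesis regulators had 0 higher and 5 lower of 15. Ppargc1a was at 0 in all 3 adult control libraries and had 1178, 1374 and 1352 in E13.5, which is at least 453-fold lower in adult control (floor of 3 reads per library, adjusted p = 1.95e-06). The remaining lists gave 3 and 5 of 17 for the tricarboxylic acid cycle, 3 and 1 of 13 for mitochondrial DNA upkeep, 2 and 4 of 15 for carriers, 1 and 2 of 13 for cristae, and 7 and 8 of 80 for the cytosolic ribosome.

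With Wnt3a, 0 of the 90 members and 0 of 15211 genes (0%) were called by limma. At an unadjusted p under 0.05 there was 1 member and 916 genes (6.02%), and the counts by edgeR and DESeq2 were also 0 of 15211. That member was Cox7a1, with 26.4 and 13.1 normalized counts in Wnt3a, against 6.07, 8.13 and 11.8 in adult control (log2 difference 1.07 ± 0.44 (SE), adjusted p = 0.75). The members' median log2 difference was -0.12, with 27 above 0 and 63 below, against 7498 above and 7713 below over all tested genes. For 12 of 90 members (13.3%) the groups did not overlap, against 16% of all tested genes. Within the sets the 2 Wnt3a libraries disagreed: the differences had the same sign for 36 of 90 members (40%), and r was 0.0326. Over all 15211 tested genes the share was 51.7% and r was 0.0382. Wnt3a 2 differed from adult control 3 by a median of 0.0732 in absolute log2 value, and Wnt3a 1 from adult control 1 and 2 by 0.222. Adult control 3 itself differed from adult control 1 and 2 by 0.363, with a range of -1.17 (Atp5d) to 1.06 (Uqcrb). That gap between untreated libraries of different sets exceeded both Wnt3a differences, whereas adult control 1 and 2, both of set 1, differed by 0.0558, less than either. Over all tested genes the same medians were larger throughout, at 0.111, 0.419, 0.521 and 0.105 in that order. With set 1 alone, the single Wnt3a library has no replicate and is assumed to vary like the adult control and E13.5 libraries that give the spread. On that assumption Cox7a1 (1.77) was called higher and Atp5g2, Ndufab1, Ndufb11, Ndufs3 and Ndufv1 were called lower (-0.73 to -0.57), where 18.6% of all tested genes were called.

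Several members were called both with MS-275 and between adult control and E13.5. Both comparisons use the same 3 adult control libraries, in opposite positions, so their values are given side by side without a test. Ndufb6 had 1.15 with MS-275 and -0.89 for adult control versus E13.5, and Sdhc had 1.19 and -0.47. For Ndufa4 the values were 0.89 and -1.68, and for Cox7a1 3.20 and -1.67. Ndufa8 had the opposite signs, -0.76 and 1.08, with normalized counts of 1968 and 1656 in MS-275, 2921, 3002 and 3280.3 in adult control and 1675, 1356 and 1350.2 in E13.5. Ndufs3 was negative in both (-0.83 and -0.48), and Ndufa12 (0.67 and 1.23), Ndufv3 (0.60 and 0.72) and Atp5h (0.91 and 0.53) were positive in both. For Cox6b2, Cox4i2 and Cox6a2, the isoforms with the largest E13.5 excess, the MS-275 libraries had 2.56 and 2.19, 0.853 and 0, and 0 and 0 normalized counts, near those of adult control.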

How the data were processed

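Total RNA of integrity number above 7 had been made into libraries with an mRNA kit and sequenced in pairs. Per the labels and methods, the authors trimmed reads (cutadapt), aligned them to mm10 (STAR) and counted genes (featureCounts in the submitters' processing notes, an in-house count over GENCODE M23 in the methods). No source used here says whether strand was used. The deposited values are normalized counts, a signal in which each gene's read count was divided by a DESeq2 size factor of its library. All 10 columns were used. Multiplying each column by 1 over its smallest positive value gave whole reads for 100% of values (tolerance 0.01), or 21171509 to 31810932 reads per library. Lines that name a date in place of a gene (26, holding 0.21 to 0.281% of each library) were left out.

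The main test was limma 3.58.1 (R 4.3.3) with an intensity trend on log2(normalized count + 1), all 4 groups in 1 fit, over the 15211 genes with at least 10 in at least 2 libraries. P values were Benjamini-Hochberg adjusted over all of them. Fold changes are on that scale, which understates those of low genes. Libraries are biological replicates by the labels. Alternatives changed the pseudocount (0.5, 10) and the filter (none, minimum of 50) or used TMM, equal totals, quantile normalization, the compared groups alone, a replicate block, each library left out, and edgeR 4.0.16 and DESeq2 1.42.0 on the recovered reads. The library sets, as a term or alone, were added after seeing the data. The reads of every sample pair differed by more than counting noise, so no pair repeated the same library. This check cannot tell whether libraries of a pair came from the same culture or RNA. The closest pairs were E13.5 2 and 3 (chi-square per degree of freedom 5.09), Wnt3a 2 and adult control 3 (9.35), and adult control 1 and 2 (10.7). The next closest, E13.5 1 and 2, had 84.4, so replicates within a group were not equally far apart. The fit was also run on simulated independent counts that held no library sets. That run does not give the error rate of the calls reported here. The members and gene lists were chosen with earlier results of these data known. Named genes were isoforms and core subunits, up to 5 largest rises and falls per comparison with a mean of at least 100 and no overlap, the most abundant member of each complex and up to 3 genes per list by p, and other called members are named to account for the calls, except 1 that is not reported here. Markers were named after seeing their values, and the genes of the motif factors were named outside these rules. Promoters came from RefSeq GRCm38.p6, gene positions from GENCODE M21 and sequence copies from blastn 2.17.0.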

Additional observations from a re-analysis of the deposited data

How the results depend on the processing

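Counts of called members moved with the settings. For MS-275 versus adult control (25 higher, 7 lower), fitting the compared groups alone gave 16 higher and 4 lower, a log2 limit of 1 gave 10 and 2, and the library set as a term gave 13 lower. Leaving out 1 library gave 12 to 27 higher and 3 to 9 lower, with the lowest counts without MS-275 2. For adult control versus E13.5 (8 higher, 16 lower), equal totals gave 3 higher, edgeR 14 higher and 8 lower, a limit of 1 gave 2 and 7, and set 1 alone gave 22 and 25. Leaving out 1 library gave 3 to 13 higher and 7 to 14 lower. The members' median there was -0.03, -0.16 with equal totals and 0.13 by edgeR, where the median of all genes moved too (-0.20, -0.33 and -0.02). Quantile normalization moved the median of all genes to 0.01 for MS-275 and 0.12 for adult control versus E13.5, with the members at 0.15 and -0.01, and turned Cox7a1 in that comparison to 1.41 (adjusted p = 0.0092). For Wnt3a, set 1 alone gave 1 higher and 5 lower, and the median with set 2 alone was -0.00016. The MS-275 share of counts was 1.16% with the 10 most abundant genes left out of the total. The cause of these shifts was not tested, apart from the fewer libraries or stricter limit that some settings impose.

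Deviations from the group means in same-numbered samples correlated from -0.452 (Wnt3a 2 and adult control 2) to 0.448 (Wnt3a 1 and adult control 1). Same-numbered MS-275 and Wnt3a libraries correlated at 0.396. In a treated group of 2 libraries the deviations mirror each other, so these values cannot decide on pairing between the treated groups. Equal numbers were not taken to pair the samples. With the replicate block, MS-275 had 21 members higher and 7 lower, adult control versus E13.5 had 7 and 15, and Wnt3a had 0 and 0. With 2 libraries in each treated group, p values rest on the spread pooled over all 4 groups, and the low counts of Cox7a1, Cox4i2, Cox6a2 and Cox6b2 limit their fold changes.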

Other observations

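Among the nuclear genes that surround the complexes, carriers also differed between the groups. Mpc1, a subunit of the mitochondrial pyruvate carrier, had 2702 and 2976 normalized counts in MS-275, against 787, 812 and 1011 in adult control (log2 difference 1.71, adjusted p = 0.00032 by limma). Slc25a5, an ADP/ATP carrier of the inner membrane, fell to 3098 and 2145 in MS-275, against 10115, 10094 and 7635 in adult control (-1.84, adjusted p = 0.00078). Ckmt1, a mitochondrial creatine kinase, had 30.7 and 59 in MS-275, against 0, 0 and 2.96 in adult control (adjusted p = 0.0011), and 115, 196 and 181 in E13.5. In glycolysis, Ldhb, the lactate dehydrogenase form that predominates in oxidative tissues, had 0, 0 and 0 in adult control, against 4139.9, 3780.5 and 3196 in E13.5 (adjusted p = 1.44e-05). In MS-275 against adult control, Tfb1m, a methyltransferase of mitochondrial ribosomal RNA, had 509 and 677 against 98, 87.4 and 143 (2.44, adjusted p = 0.0049), and Polg, the polymerase of mitochondrial DNA, had 1058 and 1101 against 2625, 2681 and 2268 (-1.22, adjusted p = 0.0037).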
